A study of Mus musculus with 20 samples.

Results

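The genes described here were 41 genes of Toll-like receptor (TLR) and NF-kB signalling taken by gene name. They were followed in the salivary glands (SGs) of C57BL/6J mice, an inbred strain used here without any transgene or treatment. Glands freed of lymph nodes came from mice labelled as males and aged 4, 8, 12 or 16 weeks, with 5 mice per age, and each mouse gave 1 Affymetrix mouse genome array, so that 20 arrays were compared. All 11 receptors and coreceptors and 25 of 30 other members were named by a probe set with a single gene symbol, which left Ticam2, Irak4, Traf3, Chuk and Nfkb1 without a value here. Each of the 36 measured genes, of 18194 in all, was read from its probe set of highest mean signal over the 20 arrays. The values are log2 signals, and a signal cannot be set against that of another probe set as an amount of RNA.

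Toll-like receptors recognize microbial lipids, proteins and nucleic acids. All but TLR3 pass the signal through the adapter MyD88 to the IRAK kinases and the ubiquitin ligase TRAF6, and TRAF6 with the conjugating enzyme UBC13 activates the kinase TAK1. TAK1 then drives the IkB kinases, which release NF-kB from its inhibitors, and the MAP kinases. TLR3, and TLR4 after uptake into endosomes, use the adapter TRIF, which also activates TBK1 and the transcription factor IRF3 that induces interferon-beta. In the salivary gland, epithelial cells as well as resident macrophages and lymphocytes can carry these receptors, and in whole-gland RNA a lower number of cells of a type cannot be told apart from less RNA per cell.

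The salivary markers had high signals in every array. The mean of 11 measured genes of acini and ducts lay between 8.62 and 11.76, whereas that of 2 measured pancreas genes lay between 4.88 and 5.58 and that of 4 skeletal muscle genes between 3.86 and 4.59. Xist, which is transcribed from the inactive X chromosome, had signals of 8.96 to 10.72 in the 20 arrays, and the Y-linked genes Eif2s3y, Kdm5d and Uty had signals of 2.07 to 2.97, 3.65 to 4.75 and 4.58 to 5.76. The arrays thus went against the label of males at every age. Tlr7, Tlr8, Irak1 and Ikbkg are X-linked members. The standard deviation (SD) of gene values within an array, termed the spread below, averaged 1.68, 1.50, 1.64 and 1.51 at the 4 successive ages. It differed between 8 and 12 weeks (two-sided exact permutation test over 252 labelings, p = 0.00794, adjusted p = 0.0238) and not at the same threshold between 4 and 8 weeks (adjusted p = 0.0714) or between 12 and 16 weeks (adjusted p = 0.0714). The 2 arrays of widest spread were mouse 5 at 4 weeks (1.90) and mouse 1 at 16 weeks (1.75), the latter closely followed by mouse 4 at 4 weeks (1.72). The cut after 2 arrays was chosen after seeing the data, and results are given with and without these 2.

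From 4 to 8 weeks, 4 of the 36 members changed by the probe set used for each. By these probe sets Irak3, a brake on MyD88 signalling, and Traf6 rose. Ube2n, which encodes UBC13, and Map2k1, a kinase of the ERK pathway, fell. As the mean of all probe sets of a gene, the log2 fold changes of Irak3, Traf6 and Ube2n were 0.41, 0.12 and -0.52, and none of them passed the test. No receptor or coreceptor passed the test in any period, and no member passed from 8 to 12 or from 12 to 16 weeks. A gene was called when its adjusted p lay under 0.05 in limma, fitted to the 20 arrays with p-values adjusted over all 18194 genes. The 2 members called higher and 2 called lower from 4 to 8 weeks stood against 3.26% of all genes called higher and 4.13% called lower. At an unadjusted p under 0.05, 4 members were higher and 5 lower, against 16.9% and 15.5% of all genes. The values of both ages did not overlap in 3 members, all higher at 8 weeks (Irak3, Traf6 and Ikbkg). Among all 18194 genes 689 were higher and 357 lower without overlap, 5.75% in either direction. The shares of members called were thus close to those of all genes. With the 2 arrays of widest spread left out, an alternative chosen after seeing the data, limma called 0 of the 36 members from 4 to 8 weeks and 339 of 18194 genes, and 7 members had an unadjusted p under 0.05. Fits of these 2 ages alone, with array weights or with the spread as a covariate also called 0 members (2, 210 and 16 genes). With a single mouse left out, 0 to 6 members and 14 to 2694 of all genes were called. All 4 calls were lost without mouse 4 or mouse 5 at 4 weeks, or without mouse 3 or mouse 5 at 8 weeks. In these fits 20, 14, 17 and 22 of all 18194 genes were called, against 1345 with all mice. The calls of Traf6 and Map2k1 were also lost without mouse 2 at 8 weeks (790 genes). Without mouse 1 at 16 weeks 6 members were called, Irak1 and Tlr8 in addition, among 2482 genes. The counts of members thus fell and rose with those of all genes in these fits.

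**Figure D1:**
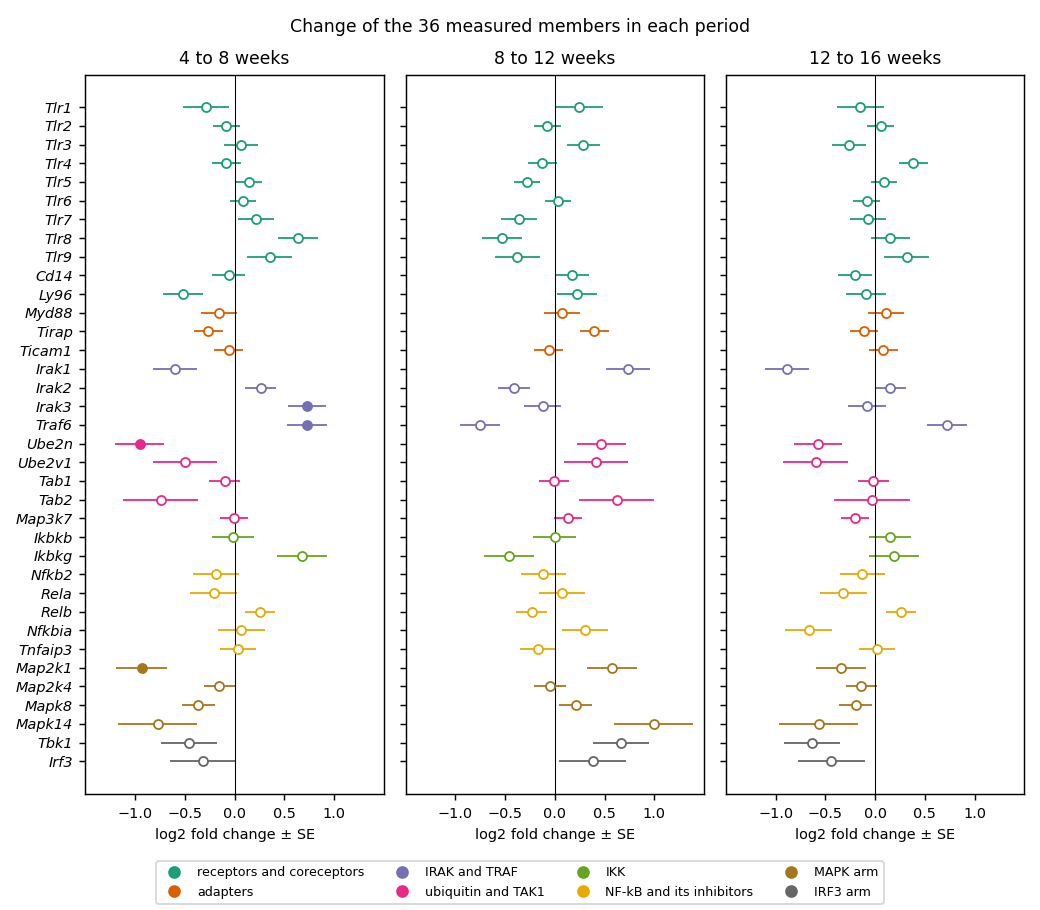
Log2 fold change of each of the 36 measured members (horizontal axis, later age minus earlier age, bars show the standard error of the fit) in each period, coloured by role. Filled points were called, and they are Irak3, Traf6, Ube2n and Map2k1 in the first period alone.

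From 8 to 12 weeks limma called 0 of the 36 members, and 0.00550% of all genes (1 of 18194). At an unadjusted p under 0.05, 5 members were higher (Tirap, Irak1, Map2k1, Mapk14 and Tbk1) and 4 lower (Tlr5, Tlr8, Irak2 and Traf6), against 11.1% and 7.74% of all genes. The values of both ages did not overlap in 4 members, of which Tirap, Irak1 and Mapk14 were higher and Traf6 lower at 12 weeks, against 5.34% of all genes. Tlr5, Irak2 and Mapk14 were named for these counts after their values were seen. From 12 to 16 weeks limma again called 0 members, against 0.192% of all genes. At an unadjusted p under 0.05, 2 were higher (Tlr4 and Traf6) and 4 lower (Irak1, Ube2n, Nfkbia and Tbk1), against 4.18% and 9.99% of all genes. Nfkbia alone did not overlap between these ages, lower at 16 weeks, against 2.65% of all genes. Without the 2 arrays of widest spread 3 members were called from 8 to 12 weeks (Irak1, Mapk14 and Traf6) among 699 genes, and 5 from 12 to 16 weeks (Irak1, Mapk14, Nfkbia, Tbk1 and Traf6) among 1843 genes. Without mouse 4 at 8 weeks alone, Traf6 was called from 8 to 12 weeks among 225 genes. Without mouse 1 at 16 weeks alone, Irak1 and Traf6 were called from 12 to 16 weeks among 1035 genes.

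Between 4 and 16 weeks 1 member, Ube2n, was called, against 3.63% of all genes. In the moderated F test over the 4 ages 3 members passed, Irak1 (adjusted p = 0.047), Traf6 (adjusted p = 0.0386) and Ube2n (adjusted p = 0.0469), against 2.60% of all genes. Irak1, Traf6 and Ube2n were called without the 2 arrays of widest spread, both between 4 and 16 weeks (1257 genes) and over all ages (1770 genes). With 1 mouse left out, 0 to 7 members and 81 to 3003 of all genes were called between 4 and 16 weeks. The call of Ube2n was lost without mouse 4 or 5 at 4 weeks (103 and 91 genes) or mouse 2, 4 or 5 at 16 weeks (81, 89 and 216 genes). Without mouse 1 at 16 weeks 7 members were called among 3003 genes. Over all ages 0 to 5 members and 85 to 2611 of all genes were called with 1 of the 20 mice left out. Irak1 was called in 4 of these 20 fits (without mouse 1 or 2 at 4 weeks, 4 at 8 weeks or 1 at 16 weeks). Ube2n was called in 5 (the same mice or mouse 3 at 16 weeks). Traf6 was called in 6 (the mice named for Irak1, mouse 1 at 8 weeks or mouse 2 at 12 weeks).

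Mean signals over the 20 arrays lay between 4.02 and 6.36 for the receptors and coreceptors and between 4.83 and 10.87 for the other members. Averaged over the 11 receptors and coreceptors, the signal of an array was 5.32 ± 0.10, 5.37 ± 0.05, 5.29 ± 0.07 and 5.31 ± 0.06 (SD, n = 5 mice) at the 4 successive ages. The ranges of neighbouring ages overlapped throughout. The same mean over the 25 other members was 6.85 ± 0.22, 6.69 ± 0.17, 6.84 ± 0.08 and 6.67 ± 0.23, and its ranges overlapped as well. The median log2 fold change of the receptors was 0.07, -0.08 and -0.07 in the 3 successive periods, and that of all genes 0.05, -0.05 and -0.02. For the other members it was -0.15, 0.07 and -0.13, with 18 of 25 negative in the first, 14 of 25 positive in the second and 17 of 25 negative in the third. Under cyclic loess scaling the medians of the other members turned positive in the first and the third of these, 0.02 and 0.04, and with the spread of the array as a covariate they were 0.15 from 4 to 8 weeks and -0.14 from 8 to 12 weeks.

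**Figure D2:**
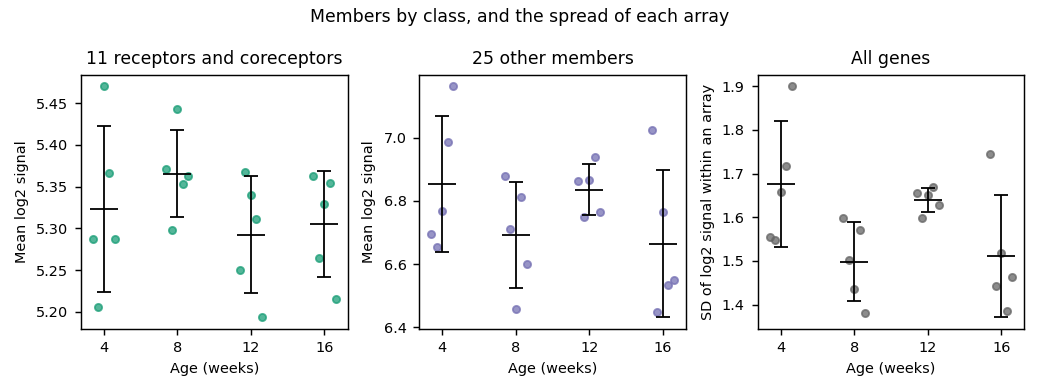
Mean log2 signal of the 11 receptors and coreceptors (left) and of the 25 other members (middle), and the SD of log2 signal over all genes within an array (right), at each age in weeks. Each point is 1 mouse and bars show mean ± SD (n = 5), and the other members and the spread both have their lowest means at 8 and 16 weeks.

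The change of a gene went with its signal among the members other than receptors. There the Pearson r between mean signal and log2 fold change was -0.32, 0.45 and -0.55 in the 3 successive periods (25 genes), and over all 18194 genes it was -0.39, 0.46 and -0.44. Among the 11 receptors and coreceptors it had other signs in the first periods, 0.51 and -0.32, and was -0.05 in the third. Their mean signals spanned only 4.02 to 6.36, so these values do not tell whether receptors depart from the trend of all genes. Pooled over the 36 members it was -0.27, 0.40 and -0.53. These are descriptions across genes, which share the same arrays and are no independent replicates. The spread of the arrays moved in the same order, and its part in the changes of single members was not tested.

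**Figure D3:**
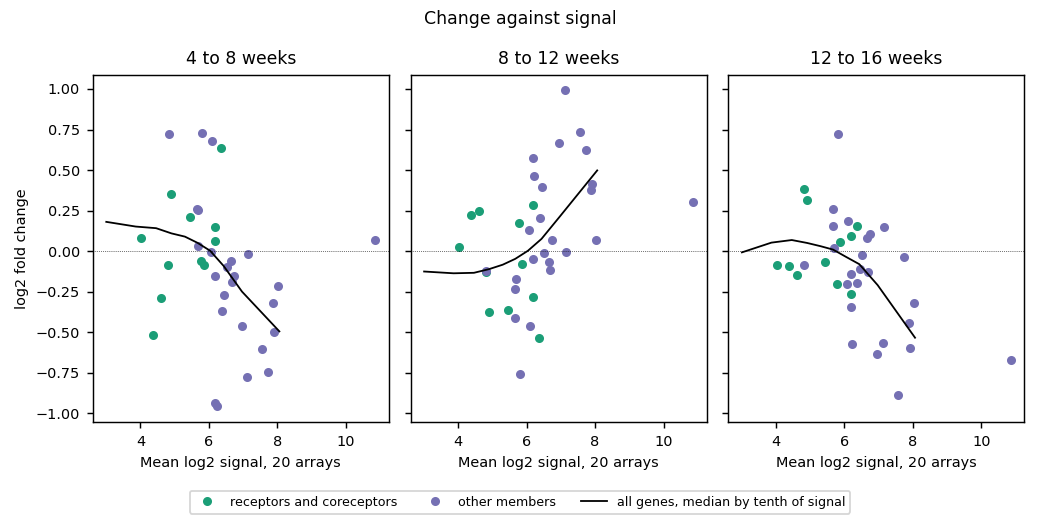
Log2 fold change of each member (vertical axis) against its mean log2 signal over 20 arrays (horizontal axis) in the 3 periods, for receptors and coreceptors (green) and other members (violet), with the median of all genes in 10 bins of signal (line). The bright members, all other than receptors, are mostly negative in the outer panels and mostly positive in the middle panel, as the line is. The receptors lie between 4.02 and 6.36, where the line runs only from about 0.15 to -0.09 in the first panel.

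The cell surface complex for lipopolysaccharide consists of TLR4, its partner MD-2 (encoded by Ly96) and CD14, which hands over the ligand. Tlr4 had log2 signals of 4.88, 4.97, 4.81, 4.74 and 4.79 in mice 1 to 5 at age 4 weeks, 4.62, 5.03, 4.42, 4.86 and 4.84 at age 8 weeks, 4.48, 5.05, 4.26, 4.73 and 4.61 at age 12 weeks and 5.07, 4.89, 5.11, 5.25 and 4.73 at age 16 weeks. These values overlapped at all ages, and the largest change between neighbouring ages was a log2 fold change of 0.38 ± 0.15 (standard error) from 12 to 16 weeks with an adjusted p of 0.272 in limma. The other 3 probe sets of Tlr4 had negative changes in that period, down to -0.36, and positive ones from 4 to 8 weeks, up to 0.48, where the probe set used gave -0.08. Ly96 had signals of 4.28, 4.15, 5.00, 4.49 and 5.46 at age 4 weeks, 4.34, 3.98, 4.37, 4.31 and 3.78 at age 8 weeks, 4.30, 4.33, 4.36, 4.41 and 4.49 at age 12 weeks and 4.35, 3.89, 4.19, 4.57 and 4.43 at age 16 weeks. Mice 3 and 5 at 4 weeks stood above all others, and the log2 fold change from 4 to 8 weeks was -0.52 ± 0.20 with an adjusted p of 0.0926 in limma. Cd14 had signals of 5.74, 5.41, 5.83, 5.90 and 6.07 at age 4 weeks, 6.20, 5.62, 5.72, 5.81 and 5.30 at age 8 weeks, 5.80, 5.91, 6.42, 5.70 and 5.69 at age 12 weeks and 5.68, 5.47, 5.88, 5.72 and 5.77 at age 16 weeks. Its log2 fold changes lay between -0.20 and 0.18 in the 3 periods, and no age stood apart.

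Among the endosomal receptors, TLR3 binds double-stranded RNA and TLR8 belongs with TLR7 to the receptors of single-stranded RNA. Tlr3 had signals of 5.82, 5.78, 6.40, 6.14 and 6.17 at age 4 weeks, 6.57, 5.94, 6.19, 5.85 and 6.09 at age 8 weeks, 6.54, 6.57, 6.52, 6.24 and 6.22 at age 12 weeks and 6.70, 5.94, 6.01, 5.92 and 6.17 at age 16 weeks. The values overlapped between all neighbouring ages, and the largest change was 0.29 ± 0.17 from 8 to 12 weeks with an adjusted p of 0.348 in limma. The second probe set of Tlr3 had a change of -0.57 from 4 to 8 weeks, where the first gave 0.07. Tlr8, the receptor with the lowest p over all ages (adjusted p = 0.141), had signals of 5.94, 6.10, 6.67, 6.22 and 5.63 at age 4 weeks, 6.30, 6.62, 7.31, 6.60 and 6.90 at age 8 weeks, 6.27, 6.37, 5.97, 6.00 and 6.45 at age 12 weeks and 6.02, 6.44, 6.50, 6.73 and 6.12 at age 16 weeks. The highest values were at 8 weeks, with mouse 3 at 7.31, but mouse 3 at 4 weeks (6.67) lay above 3 of the 5 mice at 8 weeks. The log2 fold change of Tlr8 was 0.64 ± 0.20 from 4 to 8 weeks, just short of the threshold with an adjusted p of 0.0529 in limma, and -0.53 ± 0.20 from 8 to 12 weeks with an adjusted p of 0.187. Over 10 alternatives the adjusted p from 4 to 8 weeks ranged from 0.0487 to 0.558. Of the 6 remaining receptors, TLR1, TLR2 and TLR6 bind lipopeptides, TLR5 binds flagellin, TLR7 single-stranded RNA and TLR9 DNA with CpG motifs. Their log2 fold changes lay between -0.38 (Tlr9 from 8 to 12 weeks) and 0.35 (Tlr9 from 4 to 8 weeks), and none was called.

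The adapters bring IRAK kinases or TRIF partners to the receptors, and 3 of 4 were measured. None was called. Tirap, which bridges TLR2 and TLR4 to MyD88, had the lowest p of them over all ages, with signals of 6.10, 6.34, 6.67, 6.30 and 6.98 at age 4 weeks, 6.21, 5.82, 6.37, 6.38 and 6.28 at age 8 weeks, 6.69, 6.60, 6.56, 6.61 and 6.58 at age 12 weeks and 6.58, 6.46, 6.59, 6.45 and 6.39 at age 16 weeks. All 5 mice at 12 weeks lay above the 5 at 8 weeks, and the log2 fold change was 0.40 ± 0.15 with an adjusted p of 0.182 in limma. Both probe sets of Tirap moved in the same direction in each of the 3 periods. Myd88 and Ticam1, which encodes TRIF, had log2 fold changes between -0.15 and 0.11 in the 3 periods.

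Downstream of MyD88, 2 of the 4 measured IRAK and TRAF genes, Irak3 and Traf6, were the members called higher from 4 to 8 weeks. Irak3 encodes IRAK-M, which keeps the kinase complex from leaving the receptor. Its signals were 4.49, 4.33, 4.47, 4.61 and 3.93 in mice 1 to 5 at age 4 weeks, 5.06, 4.90, 5.49, 4.73 and 5.28 at age 8 weeks, 4.72, 4.83, 5.22, 5.39 and 4.68 at age 12 weeks and 4.50, 5.38, 4.79, 5.00 and 4.73 at age 16 weeks. All mice at 8 weeks and at 12 weeks lay above all mice at 4 weeks. Irak3 rose from 4 to 8 weeks by a log2 fold change of 0.72 ± 0.19 (1.65-fold, adjusted p = 0.0336 in limma), and its later changes were -0.12 and -0.09. The probe set used was dim (mean signal 4.83) and the filter on dim genes removed it, so Irak3 was not tested there. Over 9 alternatives the adjusted p ranged from 0.0286 to 0.409, and without the 2 arrays of widest spread it was 0.0734 with a change of 0.62. The change was 0.46 with the spread as a covariate and 0.41 as the mean of both probe sets, neither called. The second probe set of Irak3, of nearly the same mean signal, had a change of only 0.10 in that period.

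Traf6 encodes the ubiquitin ligase on which the MyD88 branch converges. Its signals were 5.58, 5.60, 5.78, 5.19 and 5.12 at age 4 weeks, 6.20, 6.36, 6.43, 5.81 and 6.11 at age 8 weeks, 5.60, 5.79, 5.18, 5.24 and 5.33 at age 12 weeks and 5.45, 6.47, 6.06, 6.66 and 6.10 at age 16 weeks. Every mouse at 8 weeks was above every mouse at 4 and at 12 weeks, and at 16 weeks mouse 1 (5.45) lay with the lower ages. Traf6 rose from 4 to 8 weeks by 0.73 ± 0.20 (1.65-fold, adjusted p = 0.0383 in limma). Its log2 fold change was -0.75 ± 0.20 from 8 to 12 weeks (adjusted p = 0.126 in limma) and 0.72 ± 0.20 from 12 to 16 weeks (adjusted p = 0.153). Over 10 alternatives the adjusted p for the first period ranged from 0.0337 to 0.494, and without the 2 arrays of widest spread it was 0.0566 with a change of 0.64. The change was 0.34 with the spread as a covariate and 0.12 as the mean of all probe sets, neither called. This pattern came from 1 of the 5 probe sets of Traf6, the one of highest mean signal. The 4 others had changes of -0.33 to 0.16, -0.27 to 0.35 and -0.24 to 0.04 in the 3 periods.

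Irak1, the kinase that IRAK-M restrains, moved against the Traf6 probe set used in each period and with another of Traf6 (-0.33, 0.35 and -0.24). Its signals were 7.58, 7.68, 7.82, 7.75 and 8.52 at age 4 weeks, 7.33, 7.41, 6.92, 7.61 and 7.08 at age 8 weeks, 8.00, 7.95, 7.70, 8.05 and 8.31 at age 12 weeks and 7.93, 6.98, 7.24, 6.56 and 6.88 at age 16 weeks. Every mouse at 12 weeks was above every mouse at 8 weeks, and 4 of 5 mice at 16 weeks were below every mouse at 12 weeks. The log2 fold changes were -0.60 ± 0.22, 0.73 ± 0.22 and -0.89 ± 0.22, with adjusted p-values of 0.078, 0.143 and 0.115 in limma, and Irak1 was called over all ages alone. All 4 probe sets of Irak1 were higher at 12 than at 8 weeks, by 0.64 to 1.06, and lower at 16 than at 12 weeks, by changes of -0.89 to -0.48. From 4 to 8 weeks they ranged from -1.10 to 0.08. The probe set with -1.10 (mean signal 7.38) had an adjusted p of 0.0288 in limma over all probe sets. Over 9 alternatives the adjusted p over all ages ranged from 0.00318 to 0.254. With those 2 arrays left out, the change from 8 to 12 weeks was 0.73 with an adjusted p of 0.0208, and that from 12 to 16 weeks was -1.09 with an adjusted p of 0.00165. Irak2, the remaining member of this group, was not called.

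**Figure D4:**
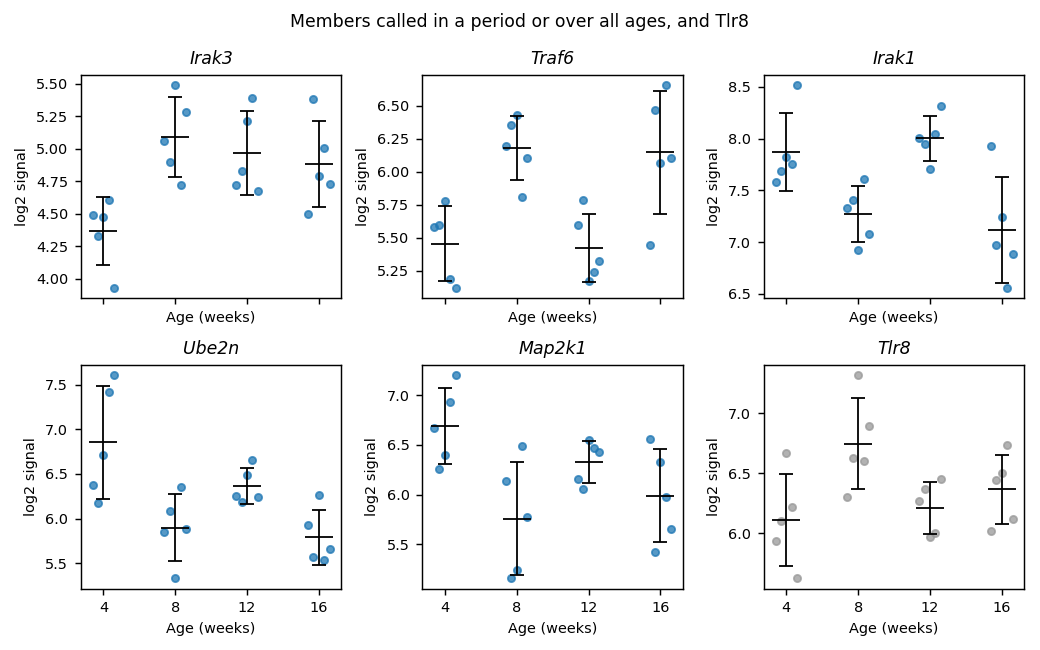
Log2 signal (vertical axis) at each age in weeks of the 5 members called in a period or over all ages, and of Tlr8 (grey), which was not called. Each point is 1 mouse and bars show mean ± SD (n = 5), and Irak3 and Traf6 at 8 weeks lie wholly above 4 weeks, whereas Ube2n and Map2k1 overlap between these ages.

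The ubiquitin-conjugating enzyme UBC13 works with UEV1A (Ube2v1) to build the chains that TAB2 reads for TAK1 (Map3k7). Ube2n had signals of 6.37, 6.17, 6.71, 7.42 and 7.60 at age 4 weeks, 5.85, 6.08, 5.33, 6.35 and 5.88 at age 8 weeks, 6.26, 6.19, 6.49, 6.66 and 6.24 at age 12 weeks and 5.93, 5.57, 6.26, 5.54 and 5.66 at age 16 weeks. Mice 4 and 5 at 4 weeks were the highest of all 20, and the lowest mouse at 4 weeks (6.17) lay below the highest at 8 weeks (6.35). Ube2n fell from 4 to 8 weeks by a log2 fold change of -0.96 ± 0.24 (1.94-fold, adjusted p = 0.0314 in limma) and from 4 to 16 weeks by -1.06 ± 0.24 (2.09-fold, adjusted p = 0.0253 in limma). Over 10 alternatives the adjusted p ranged from 0.0199 to 0.418 for the first of these and from 0.0129 to 0.193 for the second. Without the 2 arrays of widest spread the changes were -0.77 (adjusted p = 0.0768) and -0.91 (adjusted p = 0.0315). With the spread as a covariate they were -0.49 and -0.64, and as the mean of both probe sets -0.52 and -0.63, none of them called. The second probe set of Ube2n, which was dimmer, had changes of -0.08 and -0.19. All 5 members of this group had negative log2 fold changes in the first and the third period and 4 of 5 had positive ones in the second, but under cyclic loess scaling 2 of 5 were positive in each of the outer periods. Other probe sets disagreed from 4 to 8 weeks, with 0.76 for the second of Tab1 (adjusted p = 0.0448 in limma over all probe sets). For Map3k7 the probe set used gave -0.004, and 3 of the 6 gave 0.20 to 0.38. Dim ones of Map3k7 (mean signals 3.44 and 4.02) gave -0.77 and -0.73, with adjusted p-values of 0.0395 and 0.0410 in limma over all probe sets. By the probe sets used, only Ube2n of the 5 genes was called.

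The IkB kinase complex was represented by Ikbkb, its catalytic subunit, and Ikbkg, its scaffold NEMO. Ikbkg had signals of 5.82, 5.62, 6.04, 5.50 and 5.88 at age 4 weeks, 6.30, 6.18, 6.60, 6.18 and 6.97 at age 8 weeks, 6.30, 5.38, 5.55, 6.32 and 6.38 at age 12 weeks and 5.60, 6.07, 5.95, 6.08 and 7.17 at age 16 weeks. All mice at 8 weeks lay above those at 4 weeks, and the log2 fold change was 0.68 ± 0.25 with an adjusted p of 0.0827 in limma. The other 5 probe sets of Ikbkg had changes of -0.35 to 0.19 in that period. Ikbkb had changes of -0.02, 0.00 and 0.15 in the 3 periods by the probe set used. Another of its 5 probe sets (mean signal 6.53) had -0.27, 0.87 and -0.40.

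None of the 5 measured genes for NF-kB subunits and their inhibitors was called. Nfkbia, which encodes IkB-alpha and is itself a target gene of NF-kB, had signals of 10.58, 10.25, 10.91, 11.17 and 11.24 at age 4 weeks, 11.29, 10.49, 11.03, 11.13 and 10.55 at age 8 weeks, 10.97, 11.30, 11.36, 11.42 and 10.95 at age 12 weeks and 10.90, 10.55, 10.78, 10.79 and 9.64 at age 16 weeks. All mice at 16 weeks lay below all mice at 12 weeks, and mouse 5 at 16 weeks was the lowest of the 20. The log2 fold change from 12 to 16 weeks was -0.67 ± 0.23 with an adjusted p of 0.234 in limma. The brightest of 10 bins of all genes by signal had a median change of -0.53 between these ages. All 5 probe sets of Nfkbia had negative changes in that period, from -1.25 to -0.62, but under cyclic loess scaling the probe set used gave 0.48. Its change was -0.76 with an adjusted p of 0.0473 when the 2 arrays of widest spread were left out. Rela, Relb, Nfkb2 and Tnfaip3, which encodes the deubiquitinase A20, had log2 fold changes between -0.32 and 0.26 in the 3 periods.

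Many genes of this step carry NF-kB sites in their promoters, so the promoters of the members were read from RefSeq (GRCm38.p6, 250 bases before to 50 after each gene start). A promoter was given for 32 of the 41 members, 47 in all. Both strands were searched for the words GGGNNTTTC and GGGNNTTCC, of which the letter N stands for any base and which may overlap each other. A word was found in 11 of the 47 promoters (23.4%) and 9 of the 32 genes, and in 9.5% of 32851 promoters of all genes. The 4 genes of NF-kB and its inhibitors with a promoter given (Nfkb2, Rela, Nfkbia and Tnfaip3) each had a word, in 6 of 7 promoters. Of the 5 called members Ube2n had a word and Irak1, Irak3, Traf6 and Map2k1 had none in these windows, which says nothing about a factor. The letters before the gene start are shown 5′ to 3′ on the strand of the gene, with the words in capitals, for the called member with a word, for Nfkbia, whose probe sets moved together from 12 to 16 weeks, and for the A20 and NF-kB2 genes.
Ube2n, plus strand, chr10:95514912-95515161: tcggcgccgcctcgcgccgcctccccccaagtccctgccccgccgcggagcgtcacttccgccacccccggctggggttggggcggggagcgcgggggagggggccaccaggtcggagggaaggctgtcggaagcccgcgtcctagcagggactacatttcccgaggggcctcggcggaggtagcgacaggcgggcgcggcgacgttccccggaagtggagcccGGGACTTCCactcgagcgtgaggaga
Nfkbia, minus strand, chr12:55492648-55492897: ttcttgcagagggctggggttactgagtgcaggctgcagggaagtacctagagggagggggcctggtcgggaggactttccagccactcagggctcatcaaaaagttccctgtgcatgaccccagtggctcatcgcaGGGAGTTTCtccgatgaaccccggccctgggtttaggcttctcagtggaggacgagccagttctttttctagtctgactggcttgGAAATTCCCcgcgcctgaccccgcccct
Tnfaip3, minus strand, chr10:19015411-19015660: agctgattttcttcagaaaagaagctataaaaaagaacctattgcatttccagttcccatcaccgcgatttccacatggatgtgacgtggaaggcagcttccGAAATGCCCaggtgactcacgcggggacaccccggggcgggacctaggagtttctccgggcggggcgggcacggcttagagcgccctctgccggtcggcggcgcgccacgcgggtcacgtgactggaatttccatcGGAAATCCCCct
Nfkb2, plus strand, chr19:46304487-46304736: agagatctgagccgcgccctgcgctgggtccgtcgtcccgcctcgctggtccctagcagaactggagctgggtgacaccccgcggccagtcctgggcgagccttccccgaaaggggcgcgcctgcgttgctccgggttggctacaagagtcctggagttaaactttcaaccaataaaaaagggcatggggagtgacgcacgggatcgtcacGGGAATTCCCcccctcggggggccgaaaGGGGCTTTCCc
The word of Ube2n began 26 bases before the start. In Nfkbia the words began 113 and 28 bases before it, and 1 more lay after it. Those of Tnfaip3 began 148, 12 and 11 bases before the start and those of Nfkb2 39, 38, 11 and 10 bases before it, so that several overlap. Among the receptors Tlr2 and Tlr3 had a word, and among 17 genes induced by the pathway with a promoter given, 4 did (23.5%).

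TAK1 also leads to the MAP kinases. Map2k1 had signals of 6.67, 6.26, 6.40, 6.93 and 7.20 at age 4 weeks, 6.13, 5.16, 5.24, 6.49 and 5.77 at age 8 weeks, 6.16, 6.06, 6.55, 6.47 and 6.43 at age 12 weeks and 6.56, 5.42, 6.33, 5.97 and 5.66 at age 16 weeks. Mice 2 and 3 at 8 weeks were the lowest of the 20, whereas mouse 4 of that age (6.49) lay among the mice at 4 weeks. Map2k1 fell from 4 to 8 weeks by a log2 fold change of -0.94 ± 0.25 (1.91-fold, adjusted p = 0.0371 in limma). Over 10 alternatives the adjusted p ranged from 0.0259 to 0.468, and without the 2 arrays of widest spread it was 0.0769 with a change of -0.81. With the spread as a covariate the change was -0.47 and not called. Map2k1 has 1 probe set. Mapk8, which encodes JNK1, had signals of 6.23, 6.36, 6.61, 6.73 and 7.06 at age 4 weeks, 6.22, 6.37, 5.94, 6.32 and 6.31 at age 8 weeks, 6.34, 6.50, 6.51, 6.52 and 6.32 at age 12 weeks and 6.36, 5.70, 6.61, 6.23 and 6.32 at age 16 weeks. Its ages overlapped, its log2 fold change from 4 to 8 weeks was -0.37 ± 0.16 with an adjusted p of 0.131 in limma, and its 4 other probe sets had changes of 0.03 to 0.41. By their brightest probe sets all 4 genes of this arm had negative changes from 4 to 8 and from 12 to 16 weeks, also under median centring and cyclic loess, and 2 of 4 turned positive with the spread as a covariate. From 4 to 8 weeks 4 of the 6 probe sets of Mapk14 had positive changes (0.02 to 0.19, against -0.78 for the brightest), as had the second of Map2k4 (0.26).

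TBK1 phosphorylates IRF3. Tbk1 had signals of 6.91, 6.89, 6.75, 7.18 and 7.90 at age 4 weeks, 7.39, 6.66, 5.74, 7.14 and 6.42 at age 8 weeks, 7.28, 7.18, 7.47, 7.79 and 6.95 at age 12 weeks and 7.50, 6.53, 6.53, 6.43 and 6.50 at age 16 weeks. At 16 weeks 4 of 5 mice lay between 6.43 and 6.53, below all mice at 12 weeks, and mouse 1 had 7.50. Its log2 fold changes were -0.46, 0.66 and -0.63 in the 3 periods, with adjusted p-values of 0.253, 0.224 and 0.32 in limma, and both probe sets had the same sign in each period. The second and dim probe set of Tbk1 (mean signal 3.28) had -1.03 from 4 to 8 weeks (adjusted p = 0.0346 in limma over all probe sets). Irf3 had signals of 7.62, 7.48, 7.66, 8.38 and 9.07 at age 4 weeks, 8.29, 8.39, 7.35, 7.65 and 6.92 at age 8 weeks, 8.27, 8.16, 8.18, 8.03 and 7.87 at age 12 weeks and 8.80, 7.12, 7.89, 7.36 and 7.12 at age 16 weeks. The spread within ages was wide, with 6.92 to 8.39 at 8 weeks alone. The log2 fold changes of Irf3 were -0.32, 0.38 and -0.44 with standard errors of 0.34 and adjusted p-values of 0.512 or more in limma, and under cyclic loess scaling they were 0.10, -0.005 and 0.02.

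Several probe sets of a gene often disagreed. Of the 36 members 22 had several, and all of a member's probe sets had the same sign of change in 9, 15 and 12 of the 22 in the 3 successive periods. With the mean of all probe sets of a gene in place of the brightest, 2 members were called from 4 to 8 weeks, Map2k1 and Tlr8, each with 1 probe set.

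**Figure D5:**
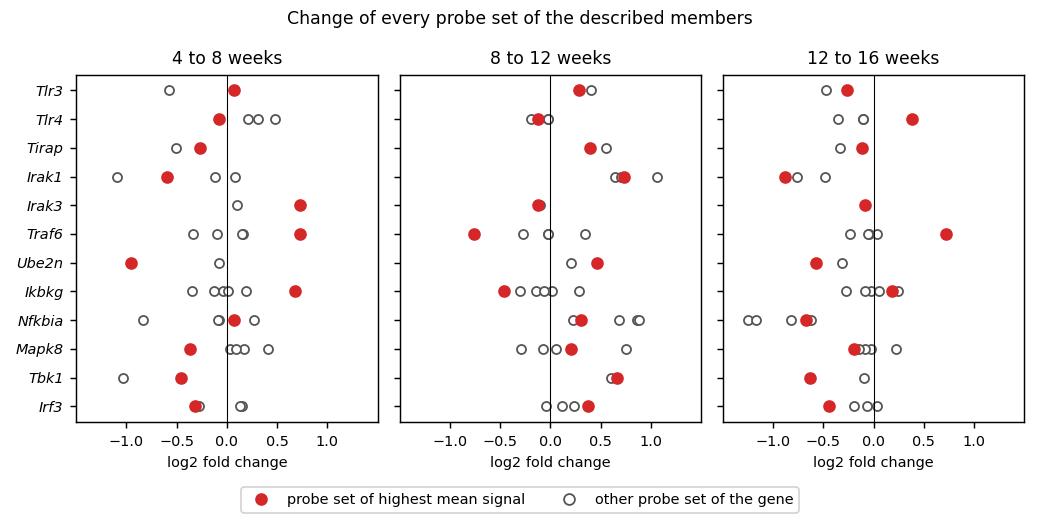
Log2 fold change (horizontal axis) of every probe set of the 12 described members with more than 1 probe set, one panel for each period. Red points are the probe sets used for the gene and open points the others. In Traf6 and Ikbkg the red point lies apart from the others in the first period. In Irak1 and Nfkbia all lie below 0 in the last period, as they do in Tlr3, Tirap, Irak3, Ube2n and Tbk1.

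Of 70 further genes of the pathway 61 were measured. From 4 to 8 weeks 2 were called higher, the NF-kB targets Cxcl2 (0.70 ± 0.21, adjusted p = 0.0446 in limma) and Ptgs2 (0.70 ± 0.18, adjusted p = 0.0335), and 1 lower, the JNK2 gene Mapk9 (-0.98 ± 0.26, adjusted p = 0.035), together 3 of 61 against 7.39% of all genes called in either direction. None was called from 8 to 12, from 12 to 16 or between 4 and 16 weeks, where 12, 5 and 9 of the 61 had an unadjusted p under 0.05, against 18.8%, 14.2% and 24.2% of all genes. These shares lay near or below those of all genes. The median log2 fold change of the 61 genes was 0.01, -0.01 and -0.06 in the 3 periods. By list, 0 of 9 other receptors, 1 of 17 further signalling genes, 0 of 14 brakes and 2 of 21 induced targets were called from 4 to 8 weeks. Ifnb1, the gene for interferon-beta, named after its values were seen, was not called and had a log2 fold change of 0.61 ± 0.19 in that period with an adjusted p of 0.0522 in limma.

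From 4 to 8 weeks 1 of 10 macrophage markers (Cd68, -0.62 ± 0.19, adjusted p = 0.0477 in limma) and 1 of 5 T cell markers (Cd3e, 0.41 ± 0.12, adjusted p = 0.0446) were called, and none of 6 neutrophil, 5 B cell, 5 dendritic cell or 5 endothelial markers, against the 7.39% of all genes called in either direction. The mean signal of the macrophage list was 6.14 to 6.45 in the arrays at 4 weeks and 5.85 to 6.27 at 8 weeks, and that of the B cell list 4.57 to 5.06 and 5.05 to 5.54. In the later periods no marker of these lists was called. The mean of the salivary list ranged from 9.49 to 11.76, 8.64 to 10.94, 9.51 to 10.90 and 8.62 to 11.03 at the successive ages, with 0 of 11 genes called from 4 to 8 weeks and Smgc called lower between 4 and 16 weeks (-1.74 ± 0.26, adjusted p = 0.0023 in limma). Its median log2 fold change was -0.82, 0.63 and -0.64 in the 3 periods, and -1.17 between 4 and 16 weeks with 10 of 11 genes negative. From 4 to 8 weeks 4 of the 11 were lower at an unadjusted p under 0.05 in limma, against 15.5% of all genes. The part of the cell make-up in the changes of the members was not tested.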

How the data were processed

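RNA of the salivary glands of 20 C57BL/6J mice, 5 at each of 4 ages, had been hybridized to Affymetrix mouse genome arrays. The authors deposited log2 signals for 45101 probe sets after RMA (background correction and quantile normalization) in Expression Console 1.1. Which arrays were normalized together is not given in the sources used here, and RMA shrinks differences of dim probe sets. No array was left out and the number of arrays limits the precision. Of the probe sets 34958 had 1 gene symbol in the platform annotation, 932 several and 9211 none, and 34754 matched RefSeq by gene ID. Genes (18194) took their probe set of highest mean. limma 3.58.1 (R 4.3.3) was fitted to the 20 arrays with age as a factor, p-values were adjusted by the Benjamini-Hochberg method over every gene, and the threshold was 0.05. The code was tested on simulated data. Members, lists and tests were chosen with earlier results of these data known. Members described with values in every array were those called in a neighbouring period or over all ages, those the study names for innate signalling (Tlr3, Tlr4, Cd14, Ly96, Irf3, Mapk8), and the member of lowest p over all ages in each role. The study named these genes for C57BL/6.NOD-Aec1Aec2 mice at 8 weeks, a strain that is not among the 20 arrays. Their values in C57BL/6J mice are thus no check of that statement. Alternatives were median centring, cyclic loess, the mean of probe sets, a filter on genes below the percentile 40 of mean signal, a replicate block, 2 ages alone, a trended robust prior, array weights, the spread as a covariate and each mouse left out. Mouse numbers did not pair the samples: over 30 pairs of the same number, deviations from the age means had an r of -0.57 to 0.58, and 8 were over 0.1. Arrays correlated with a Pearson r of 0.792 to 0.983 and none were identical. The labels call the 5 arrays of an age biological replicates.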

Additional observations from a re-analysis of the deposited data

Results flagged for a closer look

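In 6 of 144 groups of 5 mice the highest or lowest mouse stood far from the others of its age by Dixon's criterion, which chance meets in about 1 in 20 groups. Tlr6 in mouse 3 at 4 weeks (4.10, next 3.95), Irak1 in mouse 5 at 4 weeks (8.52, next 7.82), Tab2 in mouse 1 at 16 weeks (9.23, next 7.80) and Tbk1 in mouse 1 at 16 weeks (7.50, next 6.53) were high. Tlr7 in mouse 2 at 12 weeks (4.75, next 5.38) and Nfkbia in mouse 5 at 16 weeks (9.64, next 10.55) were low. Mouse 5 at 4 weeks and mouse 1 at 16 weeks are the arrays of widest spread, and their part in these values was not tested.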

How the results depend on the processing

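The counts of called members changed with several alternatives, as did those of all genes (in brackets below). Receptor probe sets had mean signals of 4.02 to 6.36 and no detection call was used, so that the background within them was not measured. Members called from 4 to 8 weeks numbered 4. They numbered 3 with the dim filter, which tested 30 members and left out Irak3, and 2 with the mean of probe sets. With the replicate block 1 was called (Map2k1, which says nothing of a weaker effect as the numbers do not pair the mice). With 2 ages alone, array weights or the spread as a covariate 0 were called. The same held without the 2 arrays of widest spread, an alternative chosen after seeing the data. From 8 to 12 weeks 0 (1 gene) became 2 with 2 ages alone (274) and 3 without the 2 arrays (699). From 12 to 16 weeks 0 (35) became 3 with array weights (1164) and 5 without the 2 arrays (1843). Between 4 and 16 weeks 1 (660) became 2 with median centring (831). It became 0 with the mean of probe sets (567), 2 ages alone (75) or the spread (148). It became 3 with the dim filter (791), array weights (1389) or without the 2 arrays (1257). Over all ages 3 (473) became 2 with cyclic loess (612) or a trended robust prior (505). It became 0 with the mean of probe sets (331), the replicate block (86) or the spread (122). With 1 mouse left out the counts ranged from 0 to 6, 0 to 1, 0 to 2, 0 to 7 and 0 to 5 in the same order. Those of all genes ranged from 14 to 2694, 1 to 225, 9 to 1035, 81 to 3003 and 85 to 2611. The median of the members other than receptors moved to 0.015 (cyclic loess) and 0.154 (spread) from 4 to 8 weeks, -0.138 (spread) from 8 to 12 weeks, 0.044 (cyclic loess) from 12 to 16 weeks and 0.041 (spread) between 4 and 16 weeks, where leaving out 1 mouse gave -0.374 to -0.079. Single log2 fold changes changed sign, none of them called in either fit. With the mean of probe sets they were Tlr3 -0.253, Tlr4 0.230, Nfkbia -0.132 and Mapk8 0.065 from 4 to 8 weeks and Tlr4 -0.047 from 12 to 16 weeks. With the spread they were Cd14 0.151, Tbk1 0.170 and Irf3 0.509 from 4 to 8 weeks, Ly96 -0.022, Irak3 0.085 and Irf3 -0.286 from 8 to 12 weeks, and Tlr8 -0.069, Ly96 0.131, Tirap 0.013 and Irf3 0.160 from 12 to 16 weeks. With cyclic loess they were Irf3 0.099 from 4 to 8 weeks, Nfkbia -0.428 and Irf3 -0.005 from 8 to 12 weeks, and Tirap 0.019, Nfkbia 0.479 and Irf3 0.020 from 12 to 16 weeks. Without the 2 arrays they were Cd14 0.010 from 4 to 8 weeks and Irak3 0.010 from 12 to 16 weeks. With 1 mouse left out the range included both signs for Tlr3 (-0.045 to 0.151), Cd14 (-0.178 to 0.048) and Nfkbia (-0.077 to 0.172) from 4 to 8 weeks, and for Ly96 (-0.161 to 0.009), Irak3 (-0.211 to 0.021) and Ikbkg (-0.062 to 0.329) from 12 to 16 weeks. The cause of these differences was not tested. Of the values of 49 single-gene results under alternatives that kept all mice or left out the 2 arrays, 421 kept their direction and side of the threshold, 25 no longer passed it and 12 newly passed it, and with 1 mouse left out 938, 23 and 9 did so.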
